A study of Drosophila melanogaster with 2 samples.

Results

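Of the 6100 called Myb-GFP summits, 437 (7.16%) lay at internal alternative promoters, that is, at transcription start sites (TSSs) inside a protein-coding gene rather than at its first promoter. A summit, the position of highest enrichment in a peak, was counted here when it lay within 500 bp of a protein-coding TSS that was over 500 bp downstream of the 5′-most TSS of its gene. It also had to lie over 500 bp from the 5′-most TSS, called the first TSS below, of every protein-coding gene. The rule uses position alone, in an Ensembl annotation of the dm6 assembly, and no signal value. The 437 summits belonged to 365 genes and 409 TSSs. Of the genes, 306 had 1 such summit, 48 had 2 and 11 had 3 or more. Position inside the gene follows from the rule. Within it, 338 summits (77.3%) lay in an intron, 92 (21.1%) in an untranslated exon and 7 (1.6%) in a coding exon.

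The study immunoprecipitated chromatin from whole Drosophila melanogaster embryos aged 0 to 24 h, of mixed sex, from a transgenic line that stably expresses Myb with a GFP tag at its C terminus. An antibody against GFP was used on chromatin sonicated to 200 to 800 bp, in 2 biological replicates of the same line, which form the single group. The control that the labels point to was not analysed here, read depth is unknown, and the part of accessible chromatin or of sonication in the signal was not tested. The signal of a peak is the authors' own value from their peak caller, whose scale the sources do not state, and "pooled" means called by the authors on both replicates together. In whole embryos, binding in fewer cells and weaker binding in every cell cannot be told apart.

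Myb is the single Drosophila member of the Myb family of DNA-binding proteins and works within the Myb-MuvB (dREAM) complex, which activates genes of mitosis in dividing cells and represses others. The Mip120 subunit of that complex binds the cell cycle homology region (CHR), a short AT-rich element, and E2F and Dp can join it. An alternative promoter lets 1 gene make transcripts with other first exons, in other tissues or at other times, and can move the start of translation.

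The sequences around the strongest internal summits show the DNA under them, with and without the words known for the complex. Each line holds the summit base and 50 bases of dm6 on either side, read 5′ to 3′ on the strand of the gene, for the 6 strongest summits among those whose window touches no annotated untranslated region and whose arm is 2L, 3L, 3R or X. Capitals mark matches on either strand to a CHR word (TTCGAA or TTTGAA), a Myb word (CAACGG or TAACGG) or an E2F word. The intervals are chr3L:21175538-21175638 on the plus strand for chb, chr2L:2193429-2193529 on the minus strand for COX7AL2, chr3R:28326561-28326661 on the minus strand for larp, chr3R:25646970-25647070 on the plus strand for jigr1, chr3L:15072300-15072400 on the minus strand for Plp and chr3L:16808286-16808386 on the plus strand for nudC.
chb: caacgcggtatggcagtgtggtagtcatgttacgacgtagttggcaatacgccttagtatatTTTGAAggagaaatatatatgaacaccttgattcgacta
COX7AL2: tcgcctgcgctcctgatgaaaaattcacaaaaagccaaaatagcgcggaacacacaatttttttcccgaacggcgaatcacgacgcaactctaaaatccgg
larp: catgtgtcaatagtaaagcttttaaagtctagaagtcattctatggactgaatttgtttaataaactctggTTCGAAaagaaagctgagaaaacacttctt
jigr1: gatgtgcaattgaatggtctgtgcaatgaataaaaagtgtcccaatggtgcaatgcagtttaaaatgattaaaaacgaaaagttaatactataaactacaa
Plp: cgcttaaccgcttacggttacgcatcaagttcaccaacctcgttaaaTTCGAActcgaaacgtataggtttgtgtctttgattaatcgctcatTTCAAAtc
nudC: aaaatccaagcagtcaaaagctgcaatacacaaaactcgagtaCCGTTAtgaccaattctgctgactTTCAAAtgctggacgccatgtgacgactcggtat
The chb and larp windows each held 1 CHR word, Plp held 2, and nudC held a Myb word beside a CHR word. The COX7AL2 and jigr1 windows held none of these words, at signals of 1650.6 and 1390.7. Those with a word had 2667.9 (chb), 1417.6 (larp), 1379.3 (Plp) and 1225.6 (nudC), so the signals of windows with and without a word overlapped. A match of letters is a description, and a window without one says only that these letters are not in it.

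The strongest of the 437 summits lay 471 bp upstream of an internal TSS of tun, on arm 2R, with a pooled signal of 7446.6 and with 3896.2 in replicate 1 and 3583 in replicate 2. It was also the strongest of all 6100 called summits, and the TSS is 54579 bp downstream of the first TSS of tun. The next was in chb, which encodes the microtubule plus-end protein CLASP, at 2667.9 pooled, 1427.2 in replicate 1 and 1230.8 in replicate 2, 193 bp upstream of a TSS 2928 bp into the gene. Both replicates placed the summits of tun and chb within 100 bp of the pooled summit. The next 3 in the order of signal were in Pex19, Aldh-III and Cyp40. Pex19, which encodes a chaperone and import factor for peroxisomal membrane proteins, had 2247.5, with 1245.5 in replicate 1 and 1001.4 in replicate 2. Aldh-III, an aldehyde dehydrogenase gene, had 2059.7, with 1095.6 in replicate 1 and 963.2 in replicate 2. Cyp40, which encodes a cyclophilin that works with Hsp90, had 1996.6, with 1110.9 in replicate 1 and 884 in replicate 2. These 5 summits were high in both replicates.

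The other 15 of the 20 strongest ran from 1918.3 at px to 818.3 at Tm1. The plexus gene px, known for wing vein patterning, carried its summit 206 bp upstream of a TSS 47966 bp into the gene, with 854.6 in replicate 1 and 1066.6 in replicate 2. CG8520 had 1774.4, COX7AL2 1650.6, CG1888 1521.1 and CG12702 1471.9. The SNARE gene Vti1b had 1517.9, with 855.2 in replicate 1 and 655.7 in replicate 2, and PNPase, whose product degrades RNA in mitochondria, had 1447.8, with 672.9 in replicate 1 and 767.2 in replicate 2. The centrosomal pericentrin-like gene Plp had 1379.3, with 727.9 in replicate 1 and 657.9 in replicate 2, at a TSS 22573 bp into the gene. The dynein cofactor gene nudC had 1225.6, with 709.4 in replicate 1 and 508.6 in replicate 2. The RNA-binding gene larp had 1417.6, with 617.2 in replicate 1 and 803.3 in replicate 2, jigr1 had 1390.7, and MFS10, a transporter gene, had 1105.1. The casein kinase I gene gish had 1023.9, with 467.5 in replicate 1 and 557.1 in replicate 2. Rtnl1, which encodes a reticulon that shapes the endoplasmic reticulum, had 999.2, and the tropomyosin gene Tm1 818.3, with 426.5 in replicate 1 and 394.9 in replicate 2. Of these 20 summits, PNPase alone lay downstream of its TSS, by 77 bp.

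Internal summits were weaker than those at first promoters and stronger than those elsewhere in genes. Their median pooled signal was 172.7, with quartiles of 120.8 and 310.7, against 208.5 (136.5 and 374) for the 3795 summits at first promoters and 144.4 (112.7 and 214) for the 1191 distal summits inside genes. The 113 summits at noncoding RNA starts had a median of 179.3, and the 550 distal summits between genes one of 158.3. The order of internal, first and distal medians was the same in each replicate: 86.95, 110.2 and 69.38 in replicate 1, and 93.92, 104.1 and 78.85 in replicate 2. Among the 1525 strongest called summits were 103 internal ones, 23.6% of the internal set (95% Wilson interval 19.8 to 27.8), against 30.4% of the first-promoter set (29 to 31.9) and 11.2% of the distal set inside genes (9.5 to 13.1). Peaks are not replicates, so no p-value was computed over them, and the intervals cover the sampling of peaks or genes only.

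**Figure D1:**
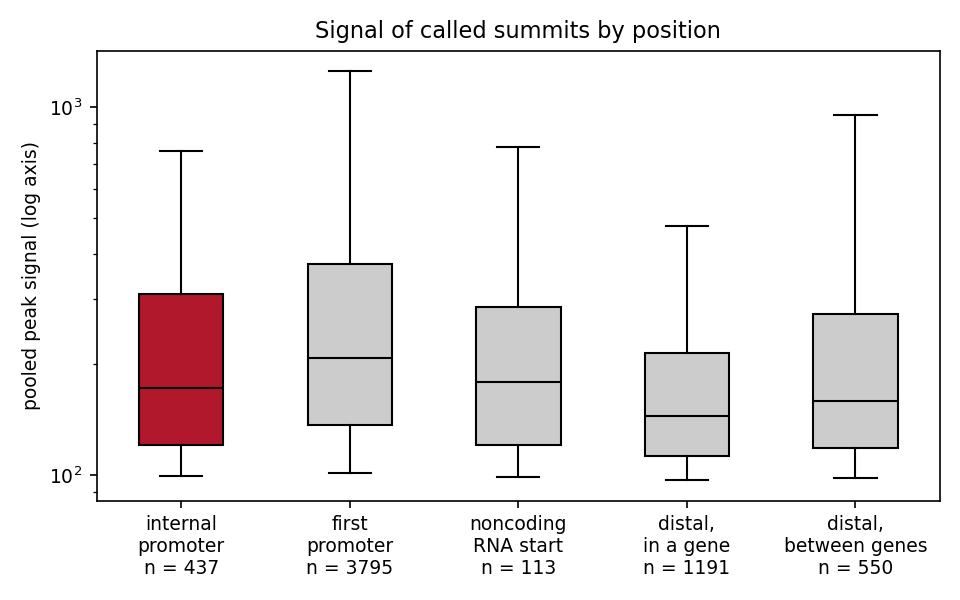
Pooled peak signal (log axis, the submitters' scale) of called summits by position, with internal promoters first. Boxes span the quartiles around the median line and whiskers reach the 5th and 95th percentiles, and the internal median of 172.7 sits between 208.5 for first promoters and 144.4 for distal summits in genes.

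The replicates agreed on internal summits about as often as on the rest. A summit within 100 bp stood in both replicate lists for 418 of the 437 (95.7%, 93.3 to 97.2), against 95.1% (94.5 to 95.6) of the 5663 other called summits. Of the 437, 13 had none in replicate 1 and 6 none in replicate 2. These are relaxed lists of 30000 entries each, so a match is a weak requirement. The authors also chose the called set by IDR, which scores reproducibility, so high shares are in part built in for every class. Across the 418 matched summits, Spearman's rho between replicate signals was 0.818, against 0.845 across the other called summits. This describes peaks of the same 2 libraries and is no test. The log2 ratio of replicate 1 over replicate 2 had a median of -0.10 with an SD of 0.53 over internal summits, against 0.10 and 0.49 at first promoters and -0.19 and 0.50 at distal summits in genes. Replicate 1 thus had relatively more signal at first promoters than at internal ones; the shares, positions and words below are those of the pooled summits.

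**Figure D2:**
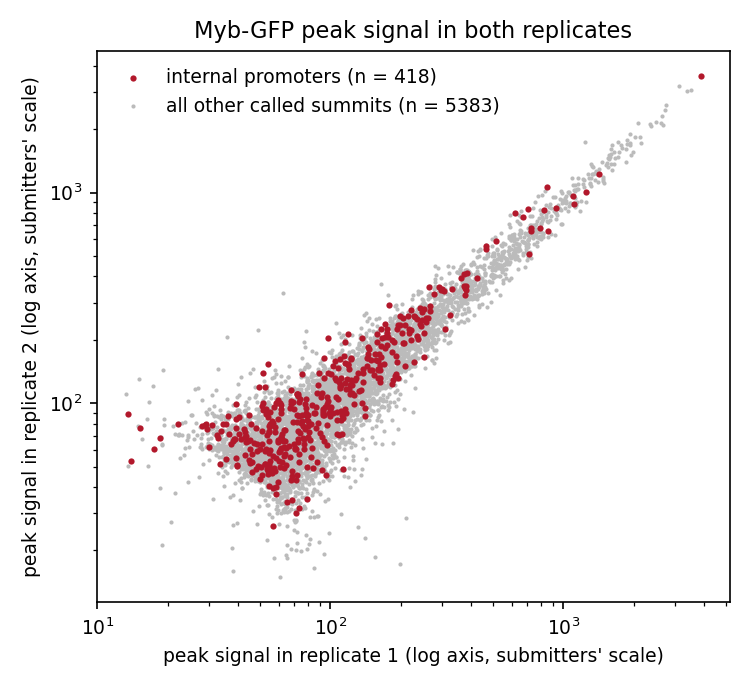
Signal in replicate 1 (x axis) against replicate 2 (y axis), both on log axes in the submitters' scale, for the 418 internal promoter summits matched in both lists (red) and the 5383 matched others (grey). The red points lie along the whole range of the grey ones, with tun at the upper end, and scatter more at low signal.

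The summits lay upstream of the internal TSS and farther from it than at first promoters. The median position was 122 bp upstream (quartiles 254 and 29 bp upstream), against 49 bp upstream (103 and 12) at first promoters. Upstream summits made up 348 of 437 (79.6%, 75.6 to 83.1), against 80.5% (79.2 to 81.7) at first promoters, so the 2 classes leaned to the same side. They differed in spread: 142 internal summits (32.5%, 28.3 to 37) lay within 100 bp of the TSS, against 69.5% (68.1 to 71) of those at first promoters. The median absolute distance was 167 bp against 60 bp. Distances in both classes are to the nearest protein-coding TSS, which for a first-promoter summit need not be the first TSS. Internal summits are kept over 500 bp from every first TSS, so the 2 measures are not fully alike. The rule sets the outer limit of 500 bp. At that limit, lola at 499 bp (signal 359.3) and CG9981 at 499 bp (124.2) were just inside, and Synd at 501 bp (95.96) and jar at 501 bp (341.7) just outside. At the limit towards first TSSs, Vti1b at 511 bp and CG14480 at 513 bp were inside, and atms at 500 bp and dgt5 at 498 bp outside. The weakest called internal summits were at CG30428 (94.01) and CG16721 (94.13), and the strongest that were not called at wake (93.78) and Orai (93.49). Below the called set, the pooled relaxed list held 1417 more summits at internal promoters, of which 588 (41.5%) matched in both replicates.

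**Figure D3:**
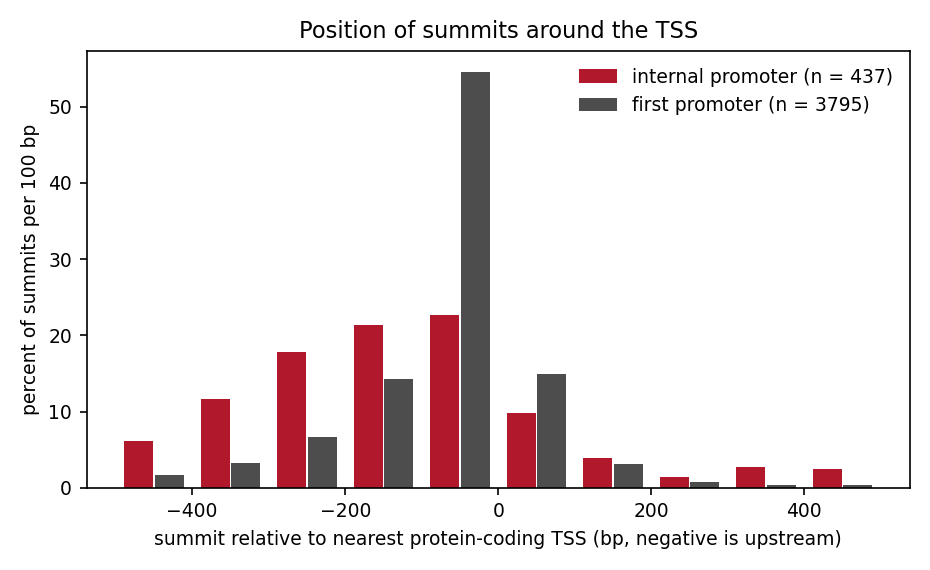
Position of called summits relative to the nearest protein-coding TSS (x axis, bp, negative is upstream), as the percent of each class per 100 bp, for 437 internal promoter summits (red) and 3795 first promoter summits (grey). The grey bars peak in the 100 bp before the TSS, and the red ones spread over the 500 bp upstream, with 32.5% within 100 bp on either side against 69.5%.

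Counted once per called summit, the internal TSSs lay a median of 3192 bp downstream of the first TSS, with quartiles of 1301 and 10435 bp and a range of 515 to 160100 bp. Signal changed little along this range. It had a median of 180.3 for the 168 summits at TSSs 500 to 2000 bp downstream, 165.6 for the 151 at 2000 to 10000 bp and 172.5 for the 118 farther away. The first promoter of the gene was called as well for 51.8%, 42.4% and 40.7% of these summits, in the same order. The summits were on the arms X (93), 2L (71), 2R (94), 3L (78), 3R (96) and 4 (5). X held 21.3% of them against 18.3% of the other called summits, and 3L 17.8% against 19.2%. A noncoding RNA start lay within 500 bp of 13 (2.97%), and 45 lay inside a further gene too.

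Eligible genes, those with an internal TSS that a member could occupy, numbered 2052, and 365 of them (17.8%, 16.2 to 19.5) carried a called internal summit. The share was 163 of 781 (20.9%, 18.2 to 23.9) where the first promoter was called and 202 of 1271 (15.9%, 14 to 18) where it was not. Counted by TSS, with starts within 100 bp joined, 447 internal TSS clusters carried a summit and 2852 had no called summit. The clusters with a summit gave rise to a larger share of the annotated transcripts of their gene, with a median of 33.3% against 25%, and lay somewhat nearer to the first TSS, at a median of 3077 bp against 3689.5 bp. Annotated transcripts count models, not expression, which was not measured here.

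No called summit lay at the first promoter of 202 of the 365 genes (55.3%, 50.2 to 60.4), and this majority depended on the window: with a promoter window of 1000 bp the share was 44%. Among all 2052 eligible genes the first promoter was called in 781 (38.1%, 36 to 40.2). The 365 genes thus lacked a called first promoter no more often than eligible genes as a whole. A called summit lay within 500 bp of the first TSS in 163 of the 365 genes (44.7%, 39.6 to 49.8). In 123 (33.7%) a summit there stood only in the pooled relaxed list, and in 79 (21.6%) that list had none there. At some of the 79 a replicate list did hold a summit near the first TSS. Examples are wdb, with 68.88 in replicate 1 and 24.18 in replicate 2, and Helz, with 123.4 in replicate 2 against 98.95 at the internal TSS. The strongest of these 79 were tun, Pex19, CG8520, CG12702 and gish, with the internal signals given above for tun, Pex19 and gish, with 932.8 in replicate 1 and 846.7 in replicate 2 for CG8520, and with 791.7 in replicate 1 and 680.7 in replicate 2 for CG12702. At these 5 genes the relaxed list placed Myb-GFP at an internal TSS and not at the annotated first one.

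Where both promoters were called, the first one was usually the stronger. In the 154 such genes with both promoters in each replicate list, the log2 ratio of the strongest internal summit over the first promoter had a median of -0.39 pooled, -0.67 in replicate 1 and -0.16 in replicate 2. The internal promoter was higher in both replicates in 47 genes (30.5%), the first promoter in 84 (54.5%), and the replicates split in 23. Differences over 2-fold in both replicates favoured the internal promoter in 19 genes and the first in 48. Between replicates the ratio of a gene moved by a median of 0.46 on the log2 scale. With first promoters of the relaxed list included, 245 genes could be compared and the median was 0.55, with 0.34 in replicate 1 and 0.65 in replicate 2; the internal promoter was higher in both replicates in 133 (54.3%) and the first in 84 (34.3%). In this wider set the internal summit had to be called and the first promoter did not. The value over called promoters asks for a call at both. Even there the terms are not fully equal. The internal value is the strongest over all internal summits of a gene, and the first promoter has a single window of 500 bp on either side.

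The genes at the ends of that order were chosen by this ratio, so their values are a description. At chb the internal promoter had 2667.9 and the first 156.3, a log2 ratio of 4.09, with 3.89 in replicate 1 and 4.11 in replicate 2. At px it had 1918.3 and 246.4 (2.96), at larp 1417.6 and 187.3 (2.92), at cnc, the fly counterpart of the Nrf2 stress factor, 740.7 and 110.3 (2.75), and at Drat 654.9 and 118.6 (2.47). In these 5 genes the internal promoter was higher in both replicates. At the other end, alc, which encodes the beta subunit of AMPK, had 104.1 at the internal promoter and 1973.8 at the first, a log2 ratio of -4.24. The sleep gene wake had 212.9 and 3975.3 (-4.22), the zinc transporter gene ZnT77C 106.7 and 1729.2 (-4.02), and the Ras GTPase-activating gene raskol 157.3 and 2518.4 (-4). Sxl, the switch gene of sex determination, has sex-specific and later promoters that are a textbook case. It had 247.9 at an internal TSS 987 bp downstream and 3598.8 at the first. These were 134.9 and 1930.4 in replicate 1 and 115.1 and 1688.4 in replicate 2. Which known promoter this internal TSS stands for, if any, was not tested. The ZnT77C internal summit had no match in replicate 1.

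**Figure D4:**
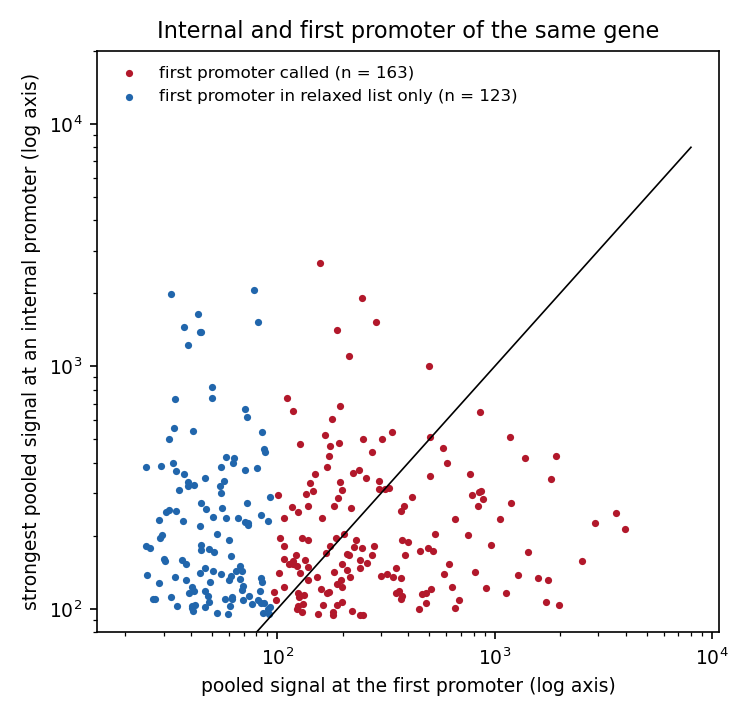
Strongest pooled signal at an internal promoter (y axis) against pooled signal at the first promoter of the same gene (x axis), both on log axes, for 163 genes with a called first promoter (red) and 123 with one in the relaxed list only (blue). The line marks equal signal. Most red points lie right of it, and the internal signals are all from called summits, which sets the lower edge.

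Genes with 3 or more internal summits show how far Myb-GFP can be spread along 1 gene. Rtnl1 carried 4, at 999.2, 427.7, 198.9 and 134.4, each at a TSS of its own between 4792 and 12339 bp into the gene, with its first promoter at 500.8. The glycolytic gene Pgk also carried 4, from 361.3 to 127.3, with 148.5 at the first promoter. Ptpmeg2, a tyrosine phosphatase gene, had 3 of nearly equal height, at 503.2, 468.9 and 402, at TSSs 13220, 8369 and 18521 bp into the gene. The dunce gene dnc, which encodes a cAMP phosphodiesterase and is known for its many long transcripts, had 781.9, 515.8 and 129.2 at TSSs 118841, 79628 and 152967 bp from the first, where the relaxed list had no summit. The others were larp (1417.6, 326.2 and 182.6), Plp (1379.3, 482.1 and 191.2), NTPase (683.5, 182.9 and 142.2), the EGF receptor ligand gene spi (520.3, 326.2 and 127.1), mtd (398.5, 161.8 and 104.3), the PP2A regulatory gene wrd (272.3, 163.5 and 100.6) and the AMPK gamma subunit gene SNF4Agamma (191.7, 154.1 and 140.4). Summits are not independent here: 56 of the 437 share their TSS with another, and 5 share a peak interval with another.

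Cell cycle genes held internal summits in 12 of the 19 eligible (63.2%, 41 to 80.9), against 17.8% of all eligible genes. Cell cycle genes as a class are known targets of Myb, and the list was drawn up with earlier results of these data known, so the count is a description. The median signal of the strongest summit in these 12 was 282.8. Among the 12 were 2 genes of the Myb-MuvB and E2F system itself. Dp, the dimer partner of E2F, had 537.5 at an internal TSS 1158 bp downstream, with 267.2 in replicate 1 and 274.8 in replicate 2, against 335.5 at its first promoter, with 171.9 in replicate 1 and 159 in replicate 2. The gene for the CHR-binding subunit, mip120, had 443.9 at a TSS 3188 bp downstream, with 209.3 in replicate 1 and 234.4 in replicate 2, against 273.6 at its first promoter, with 178.1 in replicate 1 and 121.6 in replicate 2. In both genes the internal summit was the higher in each replicate.

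The other 10 act in spindles, centrosomes and cell cycle control. Besides chb and Plp, the PP2A regulatory genes wdb and tws had 475.7 and 261.6, with no called summit at either first promoter. Klp10A, a kinesin that depolymerises microtubules, had 304 at the internal and 846.8 at the first promoter, and its internal window held both a CHR and a Myb word. The microtubule polymerase gene msps had 181.1 and 175.3, with replicates that split: 67.59 and 109.2 in replicate 1, 115.9 and 62.23 in replicate 2. The junction protein gene cno had 169.2 and 208.5, the centrosomin gene cnn 153.2 and 618.5, and Cdk4 150.5 and 122.6. The F-box gene ago, whose product targets Cyclin E for degradation, had 101.6 at the internal promoter and no called summit at the first. The relaxed list held 92.84 at that first promoter, just below the called set. The replicates split there: 39.64 at the internal and 44.38 at the first in replicate 1, 51.02 and 43.88 in replicate 2. The 7 eligible genes with none were fzr, CycB, CycE, E2f1, grp, p53 and Eb1.

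Genes known for alternative promoters held internal summits in 8 of 34 eligible (23.5%, 12.4 to 40), an interval that includes the 17.8% of all eligible genes. The ecdysone-induced nuclear receptor gene Eip75B had 383.4 at a TSS 64875 bp into the gene, with 176.9 in replicate 1 and 207.3 in replicate 2. The BTB factor gene lola had 359.3, with 172.4 in replicate 1 and 183.3 in replicate 2. The zinc finger gene chn had 335.4, the calcium-binding gene Eip63F-1 300.9, the TSC22-family gene bun 236.8, Stat92E, the transcription factor of the JAK/STAT pathway, 221.6, and the ETS factor gene pnt 103.5, beside Sxl at 247.9. Among these 8, bun and Sxl had a called first promoter, and the strongest Stat92E summit had no match in replicate 1. Set against the same 17.8%, none of the 17 eligible patterning genes had an internal summit (0 to 18.4%), among them hb, Antp, abd-A, Abd-B, dpp and twi, although 1 did (5.88%) without replicate 1. Nor had any of the 5 eligible cytosolic ribosomal protein genes (0 to 43.4%). Against 17.8% of all eligible genes, chromatin genes had 8 of 24 (33.3%, 18 to 53.3), led by Trl, which encodes GAGA factor, at 475.7, with 234.8 in replicate 1 and 251.8 in replicate 2. Signalling genes had 10 of 35 (28.6%, 16.3 to 45.1), led by the kinase gene sgg at 651.1, RNA-binding genes 7 of 30 (23.3%, 11.8 to 40.9), led by heph at 384, and neuronal and channel genes 4 of 20 (20%, 8.07 to 41.6), led by dnc.

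The sequence around internal summits resembled that at first promoters in its CHR words and differed in the words of housekeeping promoters. A CHR word lay within 50 bp of 22.9% of internal summits (19.2 to 27), against 23.2% at first promoters and 21.6% at distal summits in genes. A Myb word lay there in 8.01% (5.81 to 10.9), against 11.4% (10.4 to 12.4) and 5.63% (4.45 to 7.08). The DNA replication-related element TATCGATA, bound by Dref, was in 2.52% (1.41 to 4.45), against 9.12% (8.24 to 10.1) and 0.252%, and the motif 1 core GGTCACAC, bound by M1BP, in 2.75% (1.58 to 4.74), against 7.83% (7.01 to 8.72) and 0.42%. Both are words of broadly active Drosophila promoters, and internal summits stood between the classes compared for each. The E-box CAGCTG was in 9.84% (7.39 to 13), close to the 9.64% at first promoters and above the 3.19% (2.33 to 4.35) at distal summits. GAGAG, the core of GAGA factor sites, was in 15.8% (12.7 to 19.5), against 8.54% (7.69 to 9.47) and 11.4% (9.74 to 13.4). Among internal summits, GAGAG was found at 11% of those above their median signal and 20.5% of those below it. For the 142 internal summits within 100 bp of their TSS, the Myb word was in 14.8%, the E-box in 20.4%, the Dref word in 5.63% and the motif 1 core in 6.34%. An E2F word was in 9.86% (6.18% of all 437). CHR at 23.2%, GAGAG at 16.2% and an initiator word at 19.7% (20.8%) changed little. TATAAA was in 10.6% (14.2%) and the Zelda word CAGGTA in 0.704% (2.06%). First promoters were not limited in this way, so the classes above differ in distance to the TSS. G and C made up 40% of bases at internal summits, 40.9% at first promoters and 36.2% at distal ones. All words were searched on both strands, and a word of 5 bases is met far more often by base composition alone than one of 8.

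**Figure D5:**
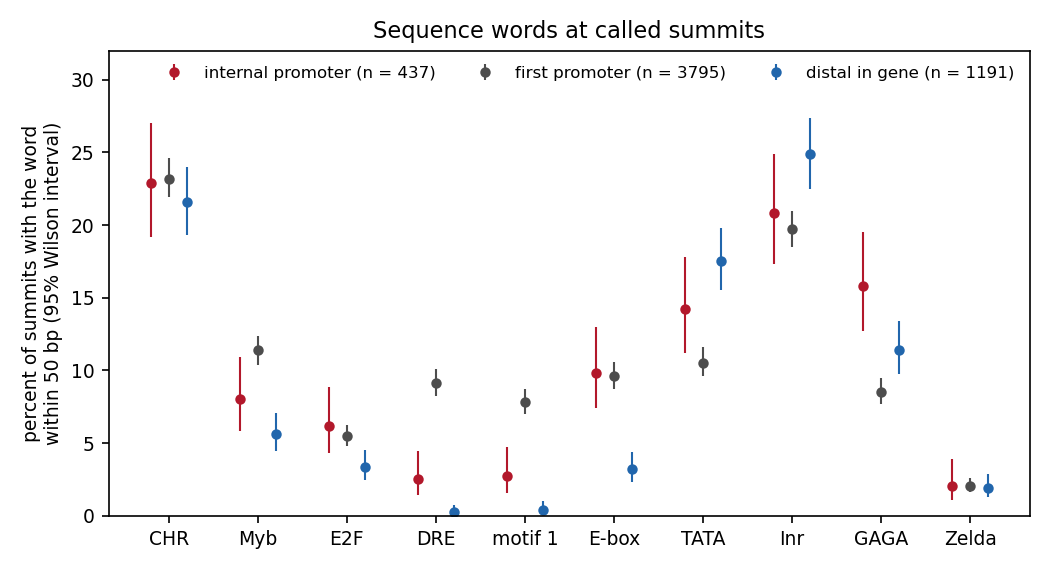
Percent of called summits with each of 10 sequence words within 50 bp (y axis), with 95% Wilson intervals, for 437 internal promoter (red), 3795 first promoter (grey) and 1191 distal summits inside genes (blue). The classes overlap for CHR, internal summits lie between the others for the Dref word and motif 1, and they lie highest for GAGAG.

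Read from the TSS rather than the summit, internal promoters with a called summit differed in several words from those with none. The second set is uncalled rather than unbound, since the relaxed list holds weaker summits at internal promoters. The windows ran from 250 bases upstream to 50 downstream of the TSS. GAGAG stood in 54.8% of called internal, 45.7% of uncalled internal and 24.4% of called first promoters, with 33.1% over all protein-coding TSSs. A CHR word stood in 48.1%, 37.8% and 55.6%, with 46.4% over all. A Myb word stood in 23.9%, 16.5% and 21.6%, with 16.8% over all. An E2F word (either TTCCCGC or its variants TTCGCGC or else TTGCCGC, as well as TTGGCGC) stood in 25.1%, 16.1% and 15.1%, with 14.8% over all, and the E-box in 24.4%, 15% and 23.2%, with 17.9% over all. The Dref word was in 4.25%, 1.09% and 18.2%, with 7.98% over all, and the motif 1 core in 4.47%, 0.736% and 16.2%, with 6.72% over all. G and C made up 43.3% of bases in called internal, 43.8% in uncalled internal and 37.5% in called first promoters, with 40.1% over all. The part of base composition in the differences from first promoters was not tested. The 7 words above were each more frequent in called than in uncalled internal promoters. The other 3 of the 10 words were not: TATAAA stood in 27.7% and 30.2%, an initiator word in 62% and 65.8%, and the Zelda word CAGGTA in 6.71% and 7.15%. An initiator word within 5 bp of the TSS was in 11% (8.39 to 14.2) of called and 11.2% of uncalled internal promoters, against 3.08% of called first promoters. TATAAA between 40 and 15 bp upstream was in 1.34% (0.617 to 2.9), 4.38% and 2.02% in the same order.

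In the annotation, use of an internal TSS often moves the start of translation. Of the 409 internal TSSs with a called summit, 216 (52.8%) share an annotated start codon with the first TSS, for which any pair of transcripts sufficed. Another 173 (42.3%) share none and begin transcripts whose start codon lies downstream, and 20 (4.89%) ones whose start codon lies upstream. Among the 2852 clusters with no called summit these shares were 50.5%, 44.1% and 5.4%, each within 3 percentage points. The share of summits at TSSs with another start codon was 24.4% at 500 to 2000 bp downstream of the first TSS, 47.7% at 2000 to 10000 bp and 77.1% beyond. The transcripts at these TSSs of px, larp, Plp, gish, Rtnl1 and Tm1 start translation downstream, and those of tun, chb, Pex19 and nudC share a start codon with the first TSS.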

How the data were processed

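ChIP-seq peak lists of 2 biological replicates were used. Per the deposited file listing, the authors called relaxed lists with a control on each replicate and on the pooled alignments, and chose the called set by IDR; the called set equals the 6100 peaks of highest signal in the pooled list. The signal deposited by the authors is their caller's value and was used within a list only. The −log10 q-value deposited by the authors was the same for every called peak and ranked none. The aligner, the caller and the IDR cutoff are not named in the sources used. Lists on dm3 were not used.

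Summits, in dm6 and 1-based, were placed on 13945 protein-coding genes and 19252 TSSs of Ensembl release 115, on 6 arms, and sequence was read from the NCBI copy of the same assembly (Python 3.11.15, numpy 2.4.6, matplotlib 3.10.9). Replicate summits were matched within 100 bp. Intervals are 95% Wilson intervals. The counting code was tested on simulated data. No test was run, since 1 group has no contrast. Genes were named by rule: the 20 strongest members, the 5 highest and 5 lowest internal over first ratios, the 5 strongest without a first-promoter summit, genes with 3 or more members, members of the cell cycle and alternative promoter lists, and those nearest each limit; leading genes of other lists were chosen after their values were seen. Members and lists were chosen with earlier results of these data known. Of 535 listed names, 24 matched no gene. Alternatives were leaving out each replicate, the called summits above the median signal, other windows and 1 summit per interval.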

Additional observations from a re-analysis of the deposited data

How the results depend on the processing

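No log2 ratio changed sign in the alternatives run. The within-gene ratio they varied was the one with relaxed first promoters, and the ratio over called promoters was not varied. Between these 2 sets of genes the sign did change, from a median of 0.549 to one of -0.386. The share of genes with no called first promoter did change sides, from a majority to a minority, with a promoter window of 1000 bp. In all, 48 of 74 alternatives to the main values stayed within the band set for the value. For shares the band was the Wilson interval, and for the count of internal summits it was within 1.5 times. For log2 ratios it was the value plus or minus the SD of the values without each replicate. For internal over distal summits in genes this ran from 0.247 to 0.27. Ratios without a replicate were thus scored against a band built from them, so the 48 are a description. Taking the strongest 6100 peaks of 1 replicate in place of the called set gave 434 to 464 internal summits, a log2 ratio of the internal over the distal median in genes of 0.247 to 0.263 (0.258 in the called set), and a within-gene log2 ratio with relaxed first promoters of 0.595 to 0.764 (0.549). Among called summits above the median signal, 199 internal summits remained, the log2 ratio of medians was -0.0562 over first promoters (-0.27 in the whole set) and 0.33 over distal summits, 83.9% lay upstream, 70% of genes had no called first promoter (55.3% in the whole set), the within-gene log2 ratio was 1.26, 8.77% of eligible genes had a summit, and 36.8% of eligible cell cycle genes did. A promoter window of 250 bp gave 0.226 over distal summits, 64.3% of genes with no called first promoter, 14.4% of eligible genes and 42% of TSSs with another start codon. A window of 1000 bp gave 0.23, 44%, 20.2% and 53% in that order, with 74.9% upstream. With internal TSSs over 2000 bp downstream, 269 summits remained, the ratio over distal summits was 0.21 and 60.8% had another start codon (47.2% in the main set). Replicate matching within 50 bp gave 80.5% and within 250 bp 99.5%. A first promoter window of 250 bp gave a within-gene log2 ratio of 0.175, and words within 100 bp of the summit put CHR at 41.2%. The cause was not tested in these cases, beyond the windows and counts they change by construction. Replicate agreement could not be computed without a replicate. No paired analysis was possible because there is 1 group and no contrast. Unknown read depth limits what can be said of weak summits.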
